A study of Homo sapiens with 4 samples.

Results

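Nuclear-RNA-rich cells were taken here as the cells of each library in which 3 nuclear RNAs held the largest share of the transcript counts. In each library, cells with under 20% of their unique molecular identifiers (UMIs, 1 per captured transcript) from the mitochondrial genome were ranked by the summed UMIs of MALAT1, NEAT1 and KCNQ1OT1 over their total UMIs, and the top 10% were taken. This gave 1639 cells among 16400 that passed the mitochondrial limit and 16424 cell barcodes in all. There were 318 members among 3183 cells in the Control library, 242 among 2425 in Radiation, 380 among 3802 in Drug and 699 among 6990 in Drug_Radiation. The other cells of the same library, 14761 in all, were the comparison throughout. Because measured values chose the members, and each group had 1 library, no difference below was tested and none has a replicate check. The 95% intervals of counts, shares and ratios cover counting error only, and those of medians cover the spread between cells of 1 library.

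MALAT1 is a long noncoding RNA of nuclear speckles, NEAT1 is the scaffold of paraspeckles, and KCNQ1OT1 is an antisense transcript that stays near its imprinted locus. All of them remain largely in the nucleus, whereas messenger RNAs for ribosomal proteins and enzymes lie mostly in the cytoplasm and mitochondrial transcripts inside the mitochondria. The share of such RNAs in a single-cell profile is therefore often looked at together with the mitochondrial share when the condition of cells is judged. The ranking cuts a continuous measure, so the members are a range of values and not a cell type.

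The cells came from MSTO-211H, an established human pleural mesothelioma line of wild-type genotype that the submitters treat as a source of mesothelioma-initiating cells, grown in suspension without serum in medium with a neuronal supplement, EGF, bFGF and heparin. Control cells received vehicle and no radiation, Radiation cells received 4 Gy, Drug cells received 10 µM QTP, and Drug_Radiation cells received both. QTP is named in the labels by this abbreviation alone, and the title of the series places it under inhibition of dopamine receptors. All cells were collected 48 h after the time of irradiation, dissociated, pooled and filtered, so each library is 1 pool of cells of 1 line. Libraries with QTP held several times more UMIs per cell, so QTP, depth and any library batch cannot be told apart. No barcode was shared between any 2 of the 4 libraries. Values below are given in the order Control, Radiation, Drug and Drug_Radiation unless another order is stated.

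The shares that chose the members are a description only. The median share of the 3 RNAs was 0.284%, 0.384%, 0.323% and 0.202% of UMIs in members, against 0.0668%, 0.1201%, 0.103% and 0.0638% in other cells. The lowest member had 0.2204%, 0.2996%, 0.2350% and 0.1516%, and the highest other cell had 0.2204%, 0.2992%, 0.2341% and 0.1515%. Within 10% of that boundary lay 141, 127, 176 and 347 cells, on both sides of it. The highest member reached 1.63%, 2.06%, 1.72% and 1.53%. The ranking rested on few molecules in the shallow libraries, with a median of 6, 16, 45 and 27 UMIs of the 3 RNAs per member, against 2, 7, 23 and 13 in other cells. MALAT1 supplied 83.9%, 88.9%, 77.7% and 63.8% of these UMIs in members, NEAT1 supplied 15.98%, 10.9%, 22.0% and 35.8%, and KCNQ1OT1 had 3, 8, 57 and 89 UMIs in all. NEAT1 thus made up a larger part of the ranking in Drug_Radiation than in the other libraries. The 20 members nearest the boundary had a median mitochondrial share of 3.81%, 4.09%, 5.30% and 6.18%, and the 20 nearest other cells had 3.20%, 3.60%, 4.65% and 7.28%.

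Members carried fewer UMIs than other cells in every library. Their median was 1978, 3691.5, 12200 and 11476 UMIs per cell, against 2390, 5567, 21476.5 and 18986. That is 82.8%, 66.3%, 56.8% and 60.4% of the level in other cells. The members lay below the median of other cells in 69.2%, 86.0%, 89.2% and 84.0% of cases, so the ranges overlapped. Of the 10% of cells with the fewest UMIs, 16.04%, 29.3%, 34.7% and 32.5% were members, and of the 10% with the most UMIs, 1.26%, 0.413%, 0.263% and 1.001% were. Total UMIs are the denominator of the ranking, so the lower total in members is not independent of the choice. When the top 10% were taken within each of 10 bins of depth, the depths came out alike by construction.

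The mitochondrial genome encodes subunits of the respiratory chain, and its transcripts took a larger share of the UMIs in members. The median mitochondrial share, counted without the 3 ranking RNAs, was 3.45%, 4.70%, 7.19% and 7.37% in members and 3.15%, 3.44%, 3.91% and 5.08% in other cells. The difference of the medians was 0.298, 1.26, 3.29 and 2.30 percentage points. The order-statistic interval of the members' median ran from 3.33% to 3.62% in Control, from 4.499% to 4.97% in Radiation, from 6.70% to 8.04% in Drug and from 7.06% to 7.75% in Drug_Radiation. Control showed the smallest difference. There, 61.9% of members lay above the median of other cells, against 79.8%, 87.6% and 81.0% in the other libraries. With members taken within bins of depth the medians were 3.45%, 4.10%, 5.33% and 6.45% against 3.15%, 3.47%, 3.93% and 5.10%. The direction was the same at matched depth, with a smaller difference in each library but Control.

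The number of mitochondrial UMIs per cell differed less than their share did. Members held a median of 73, 189.5, 940.5 and 912 mitochondrial UMIs, which is 92.4%, 95.7%, 109% and 89.9% of the level in other cells. Their nuclear-encoded UMIs, without the 3 ranking RNAs, stood at 82.5%, 66.2%, 54.2% and 59.7% of the level in other cells. In Drug the members therefore had slightly more mitochondrial UMIs and far fewer nuclear-encoded ones.

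Of the 13 mitochondrial messenger RNAs, all were higher as a share of UMIs in members in Radiation, Drug and Drug_Radiation, and all but MT-ND4L in Control. MT-ND1, a subunit of complex I, had log2 ratios of 0.46, 0.74, 1.002 and 0.76, and MT-CYB, of complex III, had 0.37, 0.66, 0.88 and 0.66. MT-CO3, the most abundant of them, took 1.07%, 1.58%, 2.22% and 2.25% of UMIs in members against 0.877%, 1.05%, 1.14% and 1.47% in other cells. MT-ND4L had a log2 ratio of -0.19 in Control, with an interval from -0.43 to 0.05 from 156 UMIs in members.

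The members were not uniform. Ordered by share of the 3 RNAs and cut into 4 groups of equal size, the members with the highest shares had the largest mitochondrial share and the fewest UMIs. In Drug the median mitochondrial share was 12.7% in the top group, then 8.40%, 5.53% and 4.77%, while the median depth went from 8334 to 10249, 14269 and 16005 UMIs. In Drug_Radiation the same medians were 10.7%, 7.25%, 6.61% and 6.16%, and in Radiation 8.40%, 4.66%, 4.31% and 4.08%. In Control they were 3.81%, 3.29%, 3.33% and 3.48%, with no steady order. At least 10% mitochondrial UMIs were found in 11, 35, 131 and 200 members, against 5, 4, 14 and 99 of the other cells. That is 3.46%, 14.5%, 34.5% and 28.6% of members against 0.175%, 0.183%, 0.409% and 1.57% of other cells. Under 1% mitochondrial UMIs were found in 1 member, in Control, against 18, 33, 26 and 2 other cells.

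**Figure D1:**
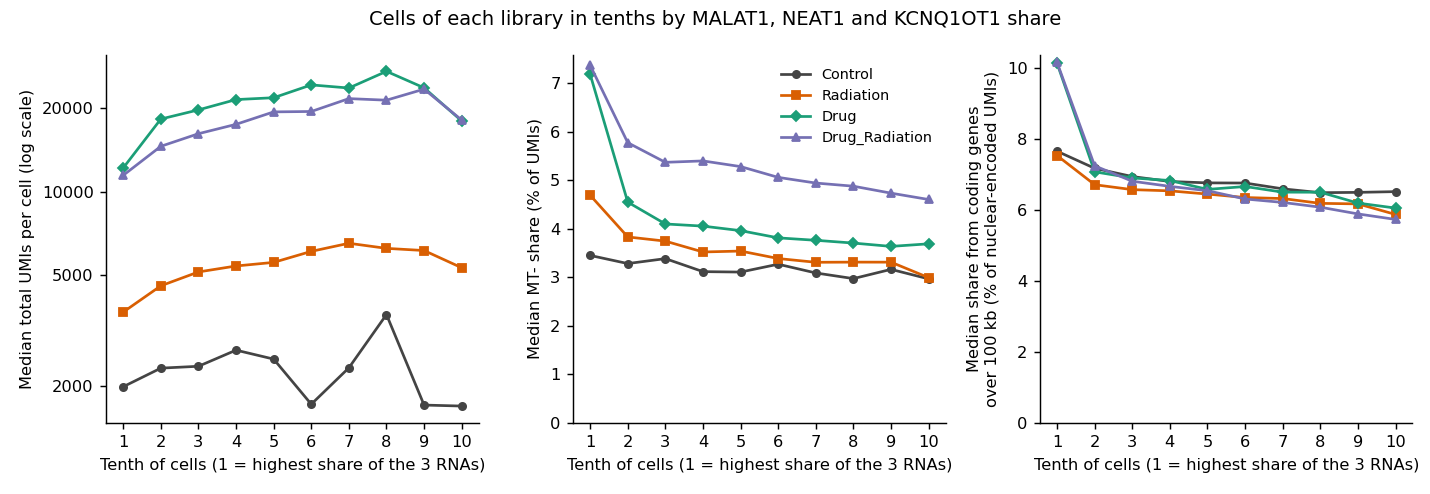
Cells of each library in deciles by share of MALAT1, NEAT1 and KCNQ1OT1 (x axis, 1 is the highest decile), with the median total UMIs per cell (left, log scale), the median mitochondrial share in percent (middle) and the median share of nuclear-encoded UMIs from protein-coding genes over 100 kb in percent (right); each line is a library. In Drug the mitochondrial median drops from 7.19% in the highest decile to 4.55% in the next and 3.69% in the lowest, and in Control the line is nearly flat, from 3.45% to 2.97%. Deciles 9 and 10 of Control hold only cells with 0 UMIs of the 3 RNAs, in barcode order.

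Along the ranking, the mitochondrial share was highest in the highest decile in each library. In Drug it went from 7.19% in the highest decile to 4.55% in the next and then only to 3.69% in the lowest, and in Drug_Radiation from 7.37% to 5.78% and finally 4.61%. The step from the highest decile to the next was the largest along the ranking in Drug, Drug_Radiation and Radiation. Control showed no steady order, with medians between 2.97% and 3.45%. In its deciles 9 and 10 all 318 cells had 0 UMIs of the 3 RNAs, as did 20 cells of decile 8, so barcode order alone ranked them. Such cells numbered 81, 14 and 46 in the lowest decile of Radiation, Drug and Drug_Radiation.

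Members also had a larger share of UMIs from long genes. Protein-coding genes that span more than 100 kb supplied a median of 7.66%, 7.53%, 10.1% and 10.1% of a member's nuclear-encoded UMIs, against 6.70%, 6.34%, 6.58% and 6.35% in other cells. Of the members, 75.5%, 85.1%, 92.4% and 93.6% lay above the median of other cells. At matched depth the medians were 7.63%, 7.09%, 8.37% and 8.74% against 6.71%, 6.35%, 6.60% and 6.37%. Genes under 10 kb supplied 48.4%, 47.5%, 41.0% and 42.1% of the summed UMIs of members, against 51.8%, 50.3%, 47.2% and 50.02%. Long noncoding RNAs other than the ranking RNAs supplied 4.24%, 3.25%, 3.08% and 3.22%, against 3.66%, 2.80%, 2.41% and 2.39%.

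The ratio between members and other cells went up with gene span in each library. It is given here as the log2 ratio of CPM plus 1, members over other cells, for genes of at least 5 CPM in either. CPM are the UMIs of a gene scaled to 1000000 nuclear-encoded UMIs of the same cells. Its median over protein-coding genes under 10 kb was -0.06, -0.06, -0.09 and 0.01. For genes of 10 to 50 kb it was 0.16, 0.13, 0.24 and 0.37, for genes of 50 to 100 kb 0.38, 0.32, 0.57 and 0.68, and for genes over 100 kb 0.66, 0.55, 0.87 and 1.01. The median over all genes was 0.27, 0.21, 0.38 and 0.51. With a floor of 20 CPM over all cells of a library, which members alone could not pass, the median was -0.12, -0.11, -0.22 and -0.17 under 10 kb and 0.44, 0.36, 0.68 and 0.80 over 100 kb.

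**Figure D2:**
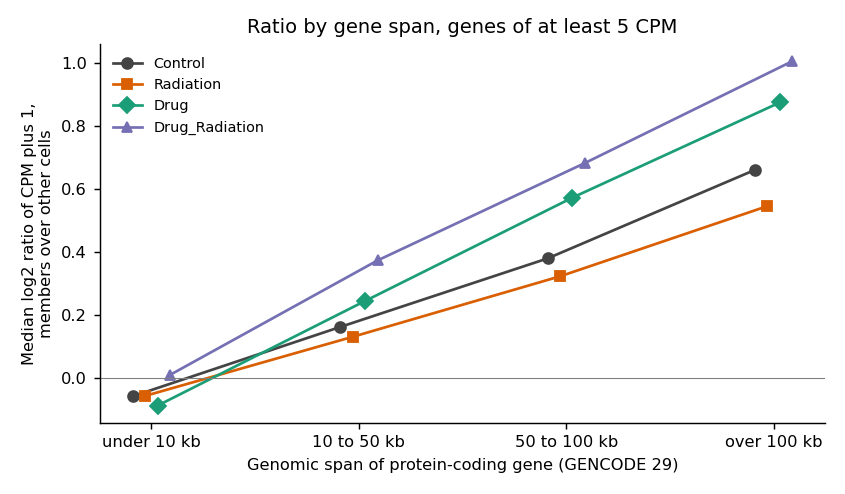
Median log2 ratio of CPM plus 1, members over other cells (y axis), for protein-coding genes of at least 5 CPM in 4 classes of genomic span from GENCODE 29 (x axis); each line is a library. The lines climb from near 0 under 10 kb to 0.66, 0.55, 0.87 and 1.01 over 100 kb.

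The long-gene share and the mitochondrial share were linked, but neither fully contained the other. Of the members, 74, 99, 227 and 322 had a mitochondrial share above the 90th percentile of their library, which is 23.3%, 40.9%, 59.7% and 46.1% of them. These took 9.28%, 9.40%, 11.9% and 12.1% of their nuclear-encoded UMIs from genes over 100 kb. Members at or below that percentile took 7.49%, 7.07%, 7.85% and 8.22%, other cells above it took 7.47%, 6.91%, 7.31% and 7.91%, and the remaining cells took 6.66%, 6.31%, 6.56% and 6.29%. Members without a high mitochondrial share thus stood at least as high in long-gene share as other cells with one.

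**Figure D3:**
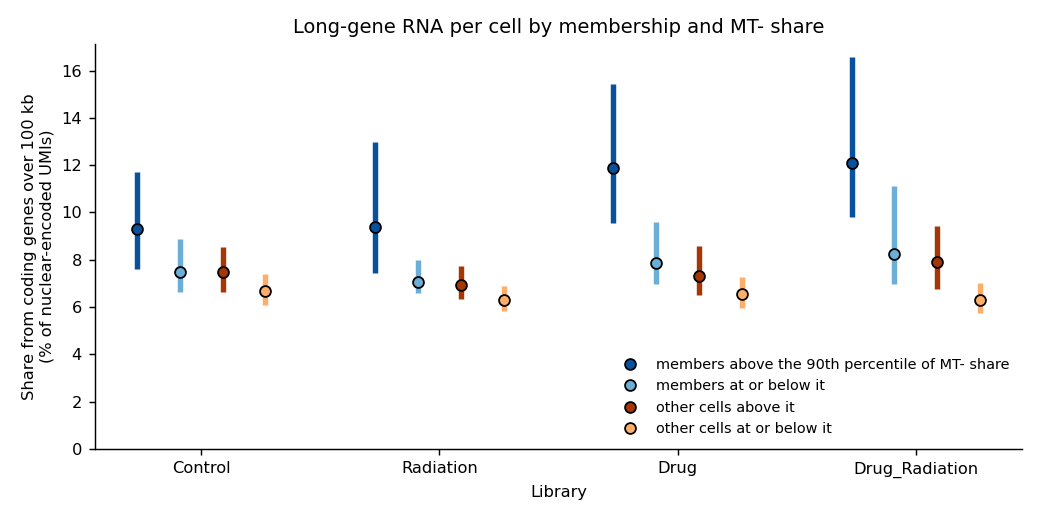
Share of nuclear-encoded UMIs from protein-coding genes over 100 kb per cell, in percent (y axis), by library (x axis) for members and other cells above and at or below the library's 90th percentile of mitochondrial share; points are medians over cells and bars run from the lower to the upper quartile. Members above the percentile stand highest in all 4 libraries, at 9.28%, 9.40%, 11.9% and 12.1%.

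Members also showed more different genes per UMI. Thinned to 500 UMIs, members had a median of 317, 345, 394 and 376 genes against 310, 335, 367 and 345 in other cells, with 0 cells left out as too shallow. Before thinning, the shallower members had fewer genes, with 830.5, 1411, 3634 and 3510 against 924, 1803, 4490 and 3997.

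UMIs were then summed over members and over other cells to compare single genes. The members held 690058, 941673, 5128324 and 9366288 UMIs in all. A level of 20 CPM in members stands for 13.2, 17.8, 94.6 and 172 UMIs, so single genes in Control and Radiation rest on few molecules. Among 5357, 5588, 6958 and 6896 genes of at least 20 CPM in members or other cells, 533, 282, 1007 and 1259 were at least 2-fold higher in members. These are 9.95%, 5.05%, 14.5% and 18.3% of the genes compared. At least 2-fold lower were 45, 25, 32 and 8, or 0.84%, 0.447%, 0.46% and 0.116%. These members were chosen on the same counts, so nothing is read from these shares beyond their size.

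The split between higher and lower genes depended on the scaling. With TMM factors, which are meant to centre the bulk of the genes, every log2 ratio came down by 0.37, 0.32, 0.54 and 0.64. A ratio between 0 and these values thus turns negative. The median over the genes compared went from 0.19, 0.12, 0.28 and 0.41 to -0.19, -0.19, -0.27 and -0.23, so TMM did not centre these genes on 0. The counts became 174, 86, 144 and 164 higher against 152, 86, 339 and 435 lower. Gene lists are therefore given relative to the median of all genes, which the scaling leaves in place. That median covers genes of at least 5 CPM in members or other cells, so genes that pass through the members alone can raise it. Over genes of at least 20 CPM in all cells of a library, the median was 0.05, 0.03, 0.10 and 0.19. The side of all genes on which a list lies can thus depend on the floor. The number of higher genes was also smaller when a gene had to reach 20 CPM over all cells of its library, so that it could not pass through the members alone. Then 140, 56, 376 and 432 were 2-fold higher and 44, 23, 31 and 6 lower. When only cells with a mitochondrial share in the central 80% of their library were compared, 523, 170, 92 and 562 genes were 2-fold higher. The count in Drug was thus 92 in place of 1007 without cells at either edge of mitochondrial share. Only 225, 134, 148 and 354 members were left there, so these counts also rest on fewer members.

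Some of the higher genes rested on a single cell. Without the UMIs of the member that held most of a gene, 374, 191, 904 and 1167 genes were still 2-fold higher, which is 70.2%, 67.7%, 89.8% and 92.7% of them. The 3 genes with the highest ratio in Control were of this kind. ENSG00000251574, a long intergenic noncoding RNA, had 17 of its 18 UMIs in 1 member. CAPN3, a calcium-dependent protease of muscle, had all 24 UMIs in 1 member, and ENSG00000251095, annotated as antisense, had all 15 in 1 member. These were 3 different cells, and their log2 ratios of 3.68, 3.05 and 2.80 describe those cells and not the class.

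Of 4739 genes of at least 20 CPM in each of the 4 libraries, 102 were 2-fold higher in members in all 4, or 2.15% of them, and 70 of these stayed so without their highest member in any library. Of the 102, 74 (72.5%) were protein-coding genes spanning more than 100 kb, against 17.6% of the 4739, and 14 were noncoding. Only 8 genes, or 0.169%, were 2-fold lower in all 4, and all 8 were on the lists of genes of S phase or of G2 and M phase. The share of the 4739 genes on these lists was not counted, so nothing is read from this. The number of lower genes also fell when MALAT1 was left out of the ranking, as given below. At the smaller size of 0.32 on the log2 scale, 953 genes (20.1%) were higher and 126 (2.66%) lower in all 4 libraries. A gene could pass this floor through the members alone, so nothing is read from the share of long genes. With a floor of 20 CPM over all cells, 26 of 3986 genes were 2-fold higher and 6 lower in all 4. Of the 26, 18 (69.2%) were protein-coding genes over 100 kb, against 13.9% of the 3986.

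Libraries share no cells, so their ratios could be set side by side. Across the 4739 genes, which are not independent replicates, the Pearson correlation of the log2 ratios was 0.70 between Control and Radiation and 0.96 between Drug and Drug_Radiation, with 0.77 to 0.80 for the remaining pairs. Of the 1007 genes 2-fold higher in Drug, 850 were also 2-fold higher in Drug_Radiation, which is 84.4% of the former list and 67.5% of the latter. Of the 282 in Radiation, 228 (80.9%) were among the 1259 of Drug_Radiation (18.1%). Control and Radiation shared 107 genes, 20.1% of the 533 in Control and 37.9% of the 282 in Radiation.

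The 12 genes highest in members by their smallest ratio over the 4 libraries were mostly very long. FTX, a noncoding RNA of the X-inactivation centre that spans 347020 bases of chromosome X (73946555 to 74293574, GRCh38), stood at 103, 84.4, 163 and 168 CPM in members against 25.2, 24.7, 35.6 and 29.9 CPM in other cells. Its log2 ratios were 1.99, 1.74, 2.16 and 2.45. NFAT5, a transcription factor of the response to osmotic stress on chromosome 16 (69565094 to 69704666), stood at 144, 123, 233 and 205 CPM against 42.0, 36.2, 47.6 and 38.5. Its log2 ratios of 1.75, 1.73, 2.27 and 2.38 rest on 95, 109, 1101 and 1766 UMIs in members. For both genes the members were above the other cells in all 4 libraries, and the intervals in the libraries with QTP were narrow, from 2.33 to 2.49 for NFAT5 in Drug_Radiation.

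MAML2, a coactivator of Notch signalling on chromosome 11 with a span of 366583 bases, had log2 ratios of 2.12, 1.83, 2.07 and 2.58 from 31, 18, 234 and 511 UMIs in members. Its relative MAML3 had 1.60, 1.53, 2.19 and 2.39. ZBTB20, a zinc finger repressor over 832771 bases of chromosome 3, had 2.08, 1.72, 1.88 and 2.16. PDE4D, a phosphodiesterase that breaks down cyclic AMP and spans 1553083 bases of chromosome 5, had 1.70, 1.85, 1.93 and 2.15. In Radiation, 11 of its 35 UMIs in members were in 1 cell.

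IL1RAPL1, a synaptic adhesion protein that spans 1369325 bases of chromosome X, had log2 ratios of 2.45, 1.58, 2.01 and 2.40. SDK1, a cell adhesion molecule of 967553 bases on chromosome 7, had 1.78, 1.46, 1.79 and 2.04. HDAC9, a class IIa histone deacetylase of 915468 bases on the same chromosome, had 1.53, 1.51, 1.52 and 1.72. STXBP5, which binds syntaxin in vesicle release, had 1.81, 1.80, 1.56 and 1.97, and ANKRD36C had 1.84, 1.76, 1.64 and 2.18. ANKRD36C has near-identical relatives, so its counts are uncertain. The noncoding genes LINC00472, at 2.04, 1.57, 2.07 and 2.27, and ENSG00000224271, at 1.94, 1.92, 1.99 and 2.31, completed the set. ENSG00000224271 is a long intergenic noncoding RNA on chromosome 22 from 47631674 to 47855600.

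**Figure D4:**
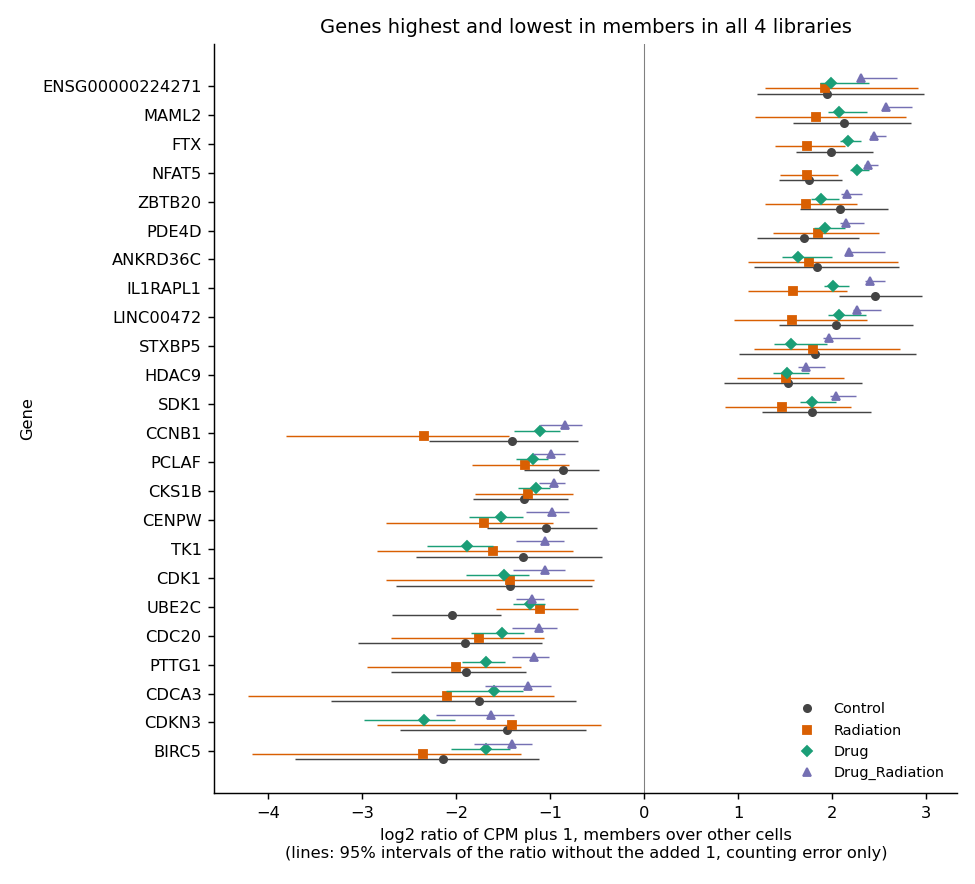
Log2 ratio of CPM plus 1, members over other cells (x axis), for the 12 highest and the 12 lowest genes over all 4 libraries (y axis); symbols mark the libraries, and lines are 95% intervals of the ratio without the added 1, for counting error only. The 12 upper genes lie between 1.46 and 2.58, and the 12 lower genes lie between -2.35 and -0.85.

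The lowest genes belonged to cell division. BIRC5, the survivin subunit of the chromosomal passenger complex, stood at 9.09, 5.63, 18.2 and 10.7 CPM in members against 43.5, 32.8, 60.3 and 30.0 in other cells. Its log2 ratios were -2.14, -2.35, -1.68 and -1.41. The first 2 of these rest on 6 and 5 UMIs in members, with an interval from -3.71 to -1.12 in Control. CDC20, an activator of the anaphase-promoting complex, had -1.90, -1.75, -1.51 and -1.11. UBE2C, the ubiquitin-conjugating enzyme of that complex, had 27, 47, 291 and 393 UMIs in members and ratios of -2.05, -1.11, -1.21 and -1.19. PTTG1, the securin that restrains separase until anaphase, had -1.89, -2.001, -1.67 and -1.17, and it shares reads with PTTG copies. All of them were lower in members in each library.

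The mitotic kinase CDK1 had log2 ratios of -1.43, -1.43, -1.49 and -1.06, and its cyclin partner CCNB1 had -1.40, -2.34, -1.10 and -0.85. CDKN3, a phosphatase that acts on cyclin-dependent kinases, had -1.46, -1.40, -2.33 and -1.62, and CDCA3 had -1.76, -2.10, -1.60 and -1.23. TK1, the thymidine kinase of S phase, had -1.29, -1.60, -1.88 and -1.05, and PCLAF, which binds the replication clamp, had -0.86, -1.27, -1.18 and -0.99. CENPW, a centromere protein, had -1.04, -1.71, -1.52 and -0.98, and CKS1B, a subunit of cyclin-dependent kinases, had -1.28, -1.23, -1.15 and -0.96. TOP2A, the topoisomerase that untangles sister chromatids, was closer to 0, at -1.29, -0.92, -0.46 and -0.33. MKI67, a marker of proliferating cells, had 8 UMIs in Control members and 0 in Radiation members, where the interval allows up to 4.15 CPM. Its ratios of 0.22 in both libraries with QTP have intervals that span 0.

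Lists of division genes were low in members as a group. Of the genes of G2 and M phase that could be measured, 1 of 45, 2 of 41, 1 of 48 and 2 of 43 lay above the median of all genes. The list median stood -1.55, -1.19, -1.29 and -0.92 from that of all genes. For genes of S phase, 2 of 29, 3 of 29, 3 of 30 and 4 of 29 lay above, with list medians -0.83, -0.83, -0.73 and -0.68 from that of all genes. CENPA, the histone variant that marks centromeres, was near the median of all genes. It had 0.20, 0.03, 0.49 and 0.61 against medians of 0.27, 0.21, 0.38 and 0.51.

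Cells with many division transcripts were rare among members. Those with at least 1% of UMIs from S or G2 and M genes made up 3, 1, 11 and 7 members, or 0.943%, 0.413%, 2.89% and 1.001%, with exact upper limits of 2.73%, 2.28%, 5.12% and 2.05%. Among other cells they made up 6.81%, 5.22%, 8.59% and 2.81%. With each cell thinned to 1000 UMIs the shares were 0.629%, 0.826%, 3.68% and 0.858% of members and 7.33%, 5.77%, 8.36% and 3.83% of other cells, and 0 cells were left out. The share was lower in members in each library at equal depth. The median cell held few such transcripts. The G2 and M genes took a median of 0.0645%, 0.0652%, 0.0996% and 0.0828% of UMIs per member against 0.0682%, 0.0706%, 0.0979% and 0.0809% per other cell. The S phase genes took 0.0538%, 0.0549%, 0.0657% and 0.0604% against 0.0703%, 0.0583%, 0.0697% and 0.0593%, lower in members in all libraries but Drug_Radiation.

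**Figure D5:**
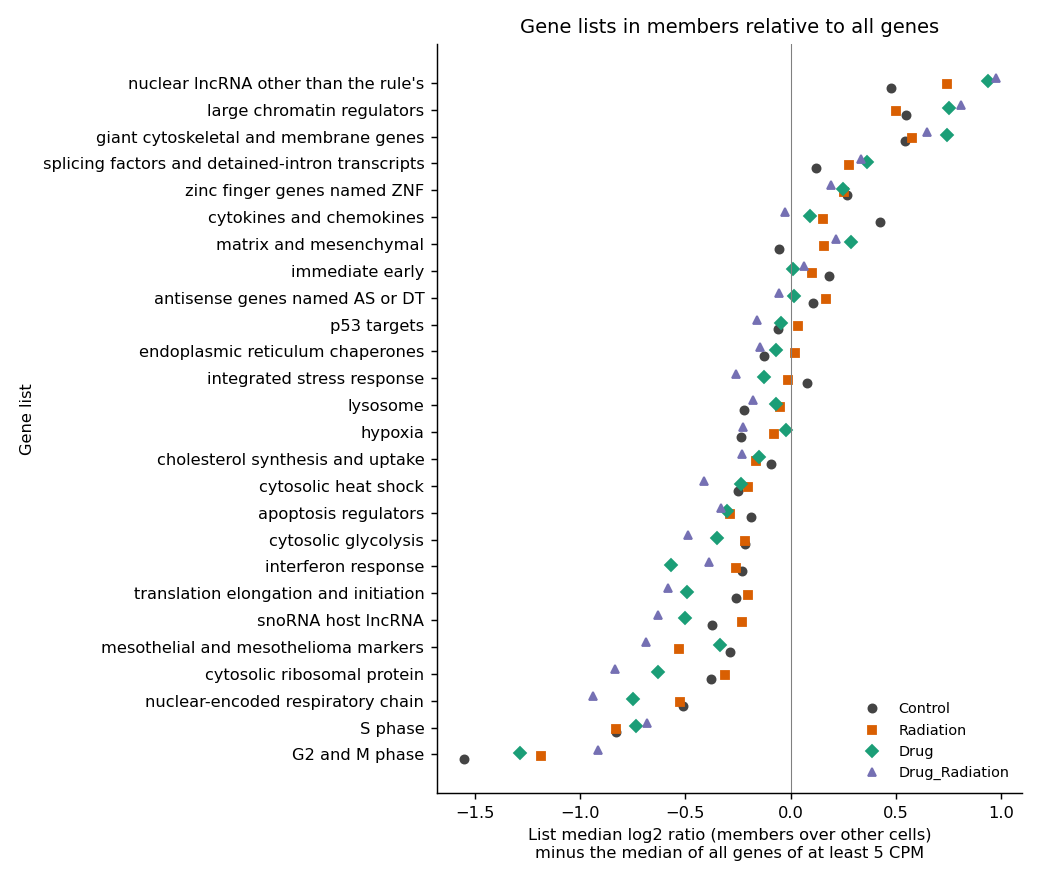
Median log2 ratio of each gene list, members over other cells, minus the median of all genes of at least 5 CPM (x axis), for lists with at least 5 measured genes (y axis); symbols mark the libraries. Nuclear long noncoding RNAs and large chromatin regulators lie to the right in all 4 libraries, and division, respiratory chain and ribosomal protein genes lie to the left.

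Other nuclear long noncoding RNAs bear on the name given to these cells, since they were not used for the ranking. Of 17 that could be measured, 14, 15, 14 and 14 lay above the median of all genes, and the list median was 0.48, 0.74, 0.94 and 0.98 above it. Besides FTX, LINC-PINT, a noncoding RNA of 171214 bases on chromosome 7 named for its induction by p53, had log2 ratios of 2.11, 1.21, 2.38 and 2.39. JPX, whose span overlaps that of FTX so that their reads may be shared, was nearer to 0 at 0.14, 0.22, 0.30 and 0.34, and LINC00486, by far the most abundant of the list, had 0.17, 0.21, 0.17 and 0.03. Noncoding hosts of small nucleolar RNAs went the other way. Of 16 measured, 1, 2, 3 and 0 lay above the median of all genes, and their list median was -0.37, -0.23, -0.50 and -0.63 from it. SNHG8 had -0.23, -0.31, -0.29 and -0.29. Genes named as antisense or divergent transcripts had medians of 0.11, 0.17, 0.02 and -0.05 relative to all genes, and their counts are uncertain because the strand counted is not given in the sources used here.

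Large chromatin regulators were higher as a group. Among 30 measured genes, 27, 27, 29 and 29 lay above the median of all genes, and the list median was 0.55, 0.50, 0.75 and 0.81 above it. ASH1L, a histone methyltransferase, stood at 39.4, 27.0, 46.5 and 43.3 CPM in members against 12.3, 13.04, 15.7 and 12.9 in other cells, with log2 ratios of 1.60, 0.997, 1.51 and 1.67. KMT2A, a methyltransferase of histone H3 lysine residues at promoters, had 1.27, 1.38, 1.41 and 1.56. SMARCA2, an ATPase of the SWI/SNF complex, did not stand out, at 0.32, -0.01, 0.21 and 0.40, although it spans 213335 bases.

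Giant cytoskeletal and membrane genes had list medians of 0.54, 0.58, 0.74 and 0.65 above that of all genes, with 18 of 20, 19 of 19, 21 of 21 and 21 of 21 above it. BIRC6, a giant ubiquitin ligase, had log2 ratios of 1.64, 1.28, 1.499 and 1.70, and NBEA, a scaffold of membrane traffic, had 1.72, 0.79, 1.70 and 1.85. FLNA, an actin crosslinker with the short span of 26115 bases, had 0.42, 0.47, 0.77 and 0.72. Splicing factors and transcripts known for detained introns had smaller medians of 0.12, 0.28, 0.37 and 0.33 above all genes. Within that list OGT, the enzyme that attaches O-GlcNAc to proteins, had 1.11, 0.61, 1.31 and 1.35, while SRSF3, a splicing factor, had -0.50, -0.52, -0.43 and -0.16. Zinc finger genes named ZNF had medians of 0.27, 0.25, 0.25 and 0.19 above all genes, over 229, 239, 296 and 286 of them.

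Genes for abundant cytoplasmic messages stood lower relative to all genes of at least 5 CPM in members or other cells. Not 1 of the 79 measured genes for cytosolic ribosomal proteins exceeded the all-gene median in any of the 4 libraries, and the list median was -0.38, -0.31, -0.63 and -0.84 from it. Per cell, these genes took a median of 36.4%, 32.0%, 23.7% and 26.4% of UMIs in members against 39.1%, 33.8%, 28.8% and 32.8% in other cells. RPL41, which spans 1358 bases, had log2 ratios of -0.22, -0.15, -0.40 and -0.50, whereas RPS2 had -0.01, 0.04, -0.00 and 0.00. Ribosomal protein genes have many processed copies, so the split of their reads is uncertain. Translation factors had list medians of -0.26, -0.20, -0.49 and -0.58 relative to all genes. Their direction depends on that reference, since their own medians were 0.01, 0.01, -0.11 and -0.08. Per cell they took 3.56%, 4.19%, 3.15% and 3.52% of UMIs in members against 3.36%, 4.12%, 3.55% and 3.92%, more in Control and Radiation and less in the libraries with QTP. Within them EIF3A, a large subunit of initiation factor 3, had 0.39, 0.63, 0.65 and 0.68.

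Nuclear-encoded subunits of the respiratory chain were lower relative to all genes. The mitochondrial ones were higher, save MT-ND4L in Control, but as a share of UMIs and not relative to all genes. Among 56 measured nuclear-encoded genes, 1, 0, 0 and 0 lay above the median of all genes. Their list median was -0.51, -0.53, -0.75 and -0.94 from it. UQCR10, a subunit of complex III, had log2 ratios of -0.44, -0.61, -0.64 and -0.58, and ATP5MC1, a subunit of ATP synthase, had -0.58, -0.57, -0.48 and -0.53. COX6A1 of complex IV had -0.09, -0.10, 0.36 and 0.04, which in Drug is close to the median of all genes at 0.38. Glycolysis genes had list medians of -0.22, -0.22, -0.35 and -0.49 relative to all genes, and their own medians were 0.05, -0.00, 0.04 and 0.02. GAPDH had 0.07, 0.04, -0.12 and -0.15, and ACTB, the cytoplasmic actin, had -0.09, -0.16, -0.09 and -0.15.

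Lists of stress and signalling genes differed in where they stood. The p53 targets had list medians of -0.06, 0.04, -0.04 and -0.16 relative to all genes, and 12, 16, 13 and 13 of 28 lay above. Their own medians were 0.21, 0.25, 0.34 and 0.35, so their direction depends on that reference. CDKN1A, the p53-induced inhibitor of cyclin-dependent kinases, stood at 182, 393, 387 and 496 CPM in members and 172, 393, 358 and 477 in other cells, with log2 ratios of 0.08, -0.00, 0.11 and 0.06. MDM2, the ubiquitin ligase that degrades p53, stood at 118, 124, 162 and 252 CPM against 54.2, 86.7, 68.6 and 98.5, with ratios of 1.11, 0.51, 1.23 and 1.35. These targets of the same factor thus differed in members, with CDKN1A at the level of other cells and MDM2 above it in each library. MDM2 spans 42511 bases and CDKN1A 10880, and whether span has a part in this was not tested. With TMM the mean CDKN1A ratio over the libraries was -0.41 in place of 0.06, so its level relative to other cells depends on the scaling.

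The integrated stress response had list medians of 0.08, -0.01, -0.13 and -0.26 relative to all genes, and own medians of 0.35, 0.20, 0.26 and 0.24. Its factor ATF4 had log2 ratios of 0.06, 0.05, 0.02 and -0.04. SLC7A11, the cystine transporter of that list, had 0.53, 0.80, 1.41 and 1.37. Cholesterol synthesis and uptake genes had list medians of -0.09, -0.17, -0.15 and -0.23 relative to all genes. Their own medians were 0.18, 0.05, 0.24 and 0.28, so their direction depends on that reference. In that list SREBF2, the master transcription factor of sterol synthesis, had 0.86, 0.10, 1.19 and 1.19, and PMVK, a mevalonate pathway kinase, had 0.18, 0.17, -0.49 and -0.42. Cytosolic heat shock genes had list medians of -0.25, -0.20, -0.24 and -0.41, with 0, 2, 1 and 2 of 12 above the median of all genes. Own medians of the heat shock list were 0.02, 0.01, 0.15 and 0.09. Those of the next 2 lists had mixed signs, at 0.08, -0.07, 0.08 and 0.17 and at 0.04, -0.04, -0.18 and 0.12. Apoptosis regulators had -0.19, -0.29, -0.30 and -0.33, interferon response genes -0.23, -0.26, -0.57 and -0.39, and immediate early genes 0.18, 0.10, 0.01 and 0.06. Endoplasmic reticulum chaperones lay at -0.13, 0.02, -0.07 and -0.14 relative to all genes, with own medians of 0.14, 0.23, 0.32 and 0.36. Matrix and mesenchymal genes lay at -0.05, 0.16, 0.28 and 0.22, with COL5A1, a fibrillar collagen that spans 203070 bases, at 0.97, 1.31, 1.35 and 1.39, and VIM, the intermediate filament vimentin, at 0.12, 0.15, 0.08 and 0.05.

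The labelled cell type was checked on marker lists, and markers of immune, endothelial and red cells were low in members and in other cells alike. Of 14 mesothelial and mesothelioma markers, 5 could be measured. All 14 summed to 4554, 4485, 5226 and 4319 CPM in members against 4620, 5723, 5143 and 5056. KRT18, a simple epithelial keratin, stood at 2751, 2134, 2821 and 2253 CPM in members against 2786, 2804, 2857 and 2727. Markers not named here thus held a large part of the sum. Calretinin (CALB2) stood at 24.2, 21.4, 39.1 and 23.8 CPM in members and mesothelin (MSLN) at 12.1, 16.9, 26.8 and 21.2. The summed immune markers, 13 genes, ranged from 12.1 to 38.3 CPM in members and from 17.2 to 42.4 in other cells, nearly all from CD68, a lysosomal protein. Red cell markers summed to at most 4.54 CPM in members and endothelial markers to at most 9.09. The 8 neural markers summed to 92.4, 111, 152 and 129 CPM in members against 57.5, 63.4, 84.9 and 73.0, mostly from SYT1, MBP and SNAP25. Fibroblast markers summed to 48.5, 68.7, 88.8 and 98.2 CPM against 41.1, 52.2, 65.3 and 62.7. Their part in the results was not tested.

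The design crosses radiation with QTP, so each ratio between libraries was taken within members and, beside it, within other cells. These comparisons share libraries and cannot support each other. CDKN1A was higher in Radiation than in Control in both classes, with log2 ratios of 1.11 (0.81 to 1.42) in members and 1.19 (1.11 to 1.28) in other cells. With QTP, Drug_Radiation against Drug gave 0.36 and 0.41. GDF15, a secreted stress factor, had 1.22 and 1.04 without QTP, and 0.17 (0.09 to 0.25) in members against 0.56 (0.54 to 0.58) in other cells with QTP. The p53 list lay 0.46 above all genes in members and 0.44 in other cells without QTP, and 0.22 and 0.27 above with it. MDM2 differed more between the classes, at 0.07 (-0.36 to 0.51) in members and 0.67 (0.52 to 0.84) in other cells without QTP, but at 0.64 and 0.52 with it. The division genes of G2 and M phase lay -0.48 and -0.60 from all genes without QTP, and -0.28 and -0.63 with it.

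For QTP, the sterol enzyme HMGCS1 had log2 ratios of 1.75 in members and 1.68 in other cells for Drug against Control. For Drug_Radiation against Radiation it had 2.08 (1.56 to 2.74) and 0.96 (0.85 to 1.11). The cholesterol list lay 0.69 above all genes in members and 0.62 in other cells without radiation, and 0.28 and 0.40 with it. NGB, neuroglobin, a heme protein of neurons, had -3.73 and -4.07 without radiation and -3.23 and -3.39 with it. EEF1A1, the elongation factor that brings aminoacyl-tRNA to the ribosome, had -0.22 and 0.07 without radiation, and -0.33 and -0.07 with it. The ribosomal protein genes lay -1.08 from all genes in members and -0.87 in other cells without radiation, and -0.69 and -0.22 with it.

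Counts of 2-fold higher genes were larger among members than among other cells in the comparisons with a shallow library, and counts of lower genes were so only for Radiation against Control. For Radiation against Control, 355 genes (5.93%) were higher and 215 (3.59%) lower in members, against 104 (2.19%) and 44 (0.925%) in other cells. For Drug_Radiation against Drug, 20 (0.279%) and 7 (0.0976%) stood against 15 (0.274%) and 7 (0.128%). For Drug against Control, 1354 (19.4%) and 125 (1.79%) stood against 475 (8.71%) and 130 (2.38%). For Drug_Radiation against Radiation, 991 (14.1%) and 83 (1.18%) stood against 54 (1.05%) and 85 (1.65%). A gene could pass the floor through the library where it is high. In the last comparison, 20 CPM stands for 17.8 UMIs in the Radiation members and 268 in the other cells of that library. At a floor of 50 CPM its counts were 288 and 56 in members against 33 and 53. Of the 991 genes, 41.2% were protein-coding genes over 100 kb, against 20.9% of the genes measured. In other cells these shares were 24.1% and 14.7%. In members they were 19.4% and 21.3% for Drug against Control and 6.20% and 19.8% for Radiation against Control. For Drug_Radiation against Drug they were 30% and 20.9%. The median log2 ratio of such long genes was 0.69 in members and 0.18 in other cells for Drug_Radiation against Radiation. For Drug against Control it was 0.59 and 0.43. Long genes could pass the floor through 1 library, so nothing is read from these values.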

How the data were processed

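The authors deposited unnormalized UMI counts for each of 4 libraries of 1 cell line. Per the labels' protocols the kit was PIPseq V T2 3′, while another label names 10x Genomics, so the platform is not settled. The build hg38 and the tool Seurat 4.3.3 are listed, without their use, per the submitters' processing notes. Not given in the sources used here were the aligner, counter, annotation, strand and barcode filter, and whether intronic reads counted. Doublets were not called.

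Members were chosen by the rule in the report. For single genes, UMIs were summed over cells and scaled to CPM of nuclear-encoded UMIs without the 3 ranking RNAs, with 1 CPM added before log2. Call limits were 2-fold at 20 CPM or more for genes, and 5 CPM for the 35 lists. Intervals are exact Poisson, conditional binomial or Clopper-Pearson intervals and order-statistic intervals of medians. Of 37468 features, 34472 (92.0%) matched GENCODE 29 on GRCh38, which gave gene types and spans. The named genes were the 12 highest and 12 lowest in all 4 libraries by their smallest ratio, the 3 highest and lowest per library, up to 4 per list, and CDKN1A, MDM2, MKI67, TOP2A, HMGCS1, ATF4, GAPDH, ACTB and EEF1A1. GDF15 and NGB were added with their values known. The members and lists were chosen with earlier results of these data known. Python 3.11.15, R 4.3.3, edgeR 4.0.16 (TMM) and DESeq2 1.42.0 (size factors) were used, and the scripts were tested on simulated data.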

Additional observations from a re-analysis of the deposited data

Results flagged for a closer look

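Barcodes at or over 20% mitochondrial UMIs took no part in the comparisons. Of the 1, 3, 4 and 16 such barcodes in Control, Radiation, Drug and Drug_Radiation, 1, 3, 4 and 13 had a share of the 3 ranking RNAs at or above that of the lowest member. Their highest shares were 0.485%, 1.003%, 1.34% and 1.06%. MANF, a secreted endoplasmic reticulum factor, was lower in members in both libraries without QTP, at -0.58 and -0.11, and higher in both with it, at 0.12 and 0.47. The mean log2 ratios of both pairs differed by 0.64. PHLDA3, a p53 target, was lower in members in both libraries without radiation, at -0.88 and -0.14, and higher in both with it, at 0.25 and 0.11, a difference of 0.69. Neither difference was tested. The intervals of MANF in Control, Radiation and Drug and of PHLDA3 in each of the 4 libraries include 0. The TMM shifts are larger than each of the positive values in the same library, so with TMM both genes are lower in members in all 4.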

How the results depend on the processing

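No paired analysis was possible because each group had 1 library and the labels number no replicates. Values again follow the order Control, Radiation, Drug and Drug_Radiation. The mitochondrial and long-gene differences kept their sign in every alternative run, as did the lower depth of members except in bins of depth, where depth was matched by construction. With the top 5% as members, log2 depth ratios were -0.45, -0.99, -1.17 and -0.91, and mitochondrial differences were 0.321, 2.399, 6.85 and 4.36. Long-gene differences were 1.14, 1.99, 5.31 and 6.27, and higher genes were 1143, 987, 2422 and 2482. Lower genes were 118, 107, 52 and 11, and 352 and 5 genes were higher and lower in all 4. With the top 20%, log2 depth ratios were -0.19, -0.47, -0.54 and -0.58, and mitochondrial differences were 0.254, 0.747, 1.38 and 1.29. Long-gene differences were 0.793, 0.739, 1.49 and 1.84, and higher genes were 163, 33, 144 and 398. Lower genes were 19, 25, 39 and 10, and 11 and 10 genes were higher and lower in all 4. Ranked on MALAT1 alone, long-gene differences were 0.702, 0.977, 2.63 and 2.19, higher genes were 145, 183, 512 and 458, and 25 and 9 genes were higher and lower in all 4. Ranked on NEAT1 and KCNQ1OT1, log2 depth ratios were -0.33, -0.41, -0.86 and -0.56, and mitochondrial differences were 0.197, 0.649, 1.93 and 1.902. Long-gene differences were 1.46, 1.04, 4.702 and 4.199, and higher genes were 888, 232, 1670 and 1740. Lower genes were 21, 32, 29 and 0, and 128 and 0 genes were higher and lower in all 4. Ranked within bins of depth, log2 depth ratios were -0.00187, 0.00679, 0.000848 and 0.000640, and mitochondrial differences were 0.298, 0.625, 1.399 and 1.35. Long-gene differences were 0.928, 0.742, 1.77 and 2.37, and higher genes were 331, 58, 166 and 591. Lower genes were 32, 18, 43 and 4, and 13 and 4 genes were higher and lower in all 4. Ranked on cells thinned to 1000 UMIs, log2 depth ratios were -0.12, -0.43, -0.44 and -0.43, and mitochondrial differences were 0.2996, 0.922, 1.18 and 0.845. Long-gene differences were 0.815, 0.742, 1.304 and 1.399, and higher genes were 269, 76, 67 and 205. Lower genes were 30, 25, 11 and 2, and 11 and 1 genes were higher and lower in all 4. Ranked on a random part of each cell's UMIs and described on the rest, long-gene differences were 0.742, 1.09, 3.26 and 3.15, lower genes were 138, 73, 31 and 7, and 66 and 2 genes were higher and lower in all 4. With a mitochondrial limit of 10%, log2 depth ratios were -0.26, -0.48, -0.44 and -0.53, and mitochondrial differences were 0.255, 0.904, 1.246 and 1.09. Long-gene differences were 0.925, 0.807, 1.39 and 1.94, higher genes were 436, 95, 122 and 522, and 14 and 7 genes were higher and lower in all 4. In cells of central mitochondrial share, log2 depth ratios were -0.29, -0.46, -0.37 and -0.57, and mitochondrial differences were 0.0486, 0.476, 0.529 and 0.589. Long-gene differences were 0.846, 0.742, 1.21 and 1.96, and higher genes were 523, 170, 92 and 562. Lower genes were 67, 70, 45 and 10, and 12 and 10 genes were higher and lower in all 4. With equal weight per cell, higher genes were 726, 665, 1570 and 1544, lower genes were 44, 27, 17 and 4, and 211 and 3 genes were higher and lower in all 4. With TMM, higher genes were 174, 86, 144 and 164, lower genes were 152, 86, 339 and 435, and 21 and 27 genes were higher and lower in all 4. With median-of-ratios factors, higher genes were 164, 74, 135 and 164, lower genes were 166, 93, 401 and 432, and 17 and 27 genes were higher and lower in all 4. At 5 CPM or more, higher genes were 1373, 883, 1701 and 2051, lower genes were 254, 149, 57 and 17, and 218 and 11 genes were higher and lower in all 4. At 50 CPM or more, higher genes were 115, 42, 329 and 391, lower genes were 15, 7, 15 and 2, and 22 and 2 genes were higher and lower in all 4. Without a floor, higher genes were 2808, 1781, 2008 and 2328, lower genes were 1091, 704, 88 and 27, and 243 and 11 genes were higher and lower in all 4. At 20 CPM over all cells, higher genes were 140, 56, 376 and 432, and 26 and 6 genes were higher and lower in all 4. Leaving out each library in turn, 102 to 303 genes were higher and 8 to 14 lower in all that remained, fewer libraries having to share the call. Mean ratios over the libraries were also taken for 33 genes and 24 lists under each alternative. The list means used genes of at least 20 CPM, unlike the 5 CPM of the list medians above. Before any alternative, endoplasmic reticulum chaperones, integrated stress response, p53 targets and hypoxia had means of 0.029, 0.006, 0.007 and 0.050 at 20 CPM. At 5 CPM each of these lists lay below all genes in most libraries. Under the alternatives, 5 genes (CDKN1A, HMGCS1, ATF4, GAPDH and EEF1A1) took the sign opposite to their starting mean in 18 of their values. So did 6 lists (endoplasmic reticulum chaperones, integrated stress response, p53 targets, cholesterol, lysosome and hypoxia) in 18 of theirs. CDKN1A, at a mean of 0.06, stood at -0.41 with TMM, and HMGCS1, at 0.43, stood at -0.04. The alternatives with central mitochondrial share and with 20 CPM over all cells, and the long-gene share under each alternative, were chosen after seeing the data. The cause of these shifts was not tested, apart from floors and scalings, which by construction change the genes counted or shift every ratio. Depth limits single genes most in Control and Radiation.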
